A study of Saccharomyces cerevisiae with 6 samples.

Results

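The ATG genes encode the machinery of autophagy, by which a cell encloses part of its own contents in a double membrane and delivers it to the vacuole, the lytic compartment of yeast. They were examined in budding yeast cells without NPL3, whose RNA-binding product joins new transcripts in the nucleus and leaves with them for the cytoplasm. The members are the genes whose symbol in the annotation of the array platform is ATG followed by a number. There are 34 such genes among the 5449 genes tested, each read by 1 probe set. The current yeast reference table (assembly R64) gives 37 genes a symbol of this kind. The other 3 do not carry it in the platform annotation and are not members, and VPS30 and SNX4, which are ATG6 and ATG24 by their older names, were counted among the partner genes.

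Expression was measured on 6 Affymetrix arrays, each hybridised with biotin-labelled cRNA made from the total RNA of a mid-log culture in rich glucose medium. Per the labels, 3 biological replicates came from strain WNPL3B1-2B, in which KanMX replaces NPL3 (npl3::KanMX), and 3 from its wild type counterpart W303-1A bar1∆. Both are haploid MATa cells, and both genotypes list the marker alleles ura3-1, his3-11,15, trp1-1 and ade2-1, can1-100, a mutant allele of LEU2 and a BAR1 deletion marked with HphMX. A single strain is named for each genotype, so the comparison is between these strains.

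Autophagy starts when the Atg1 kinase complex is released from inhibition by TORC1, the nutrient-sensing kinase complex. Vesicles carrying Atg9 and a phosphatidylinositol 3-kinase complex then start a membrane sheet, and a pair of ubiquitin-like conjugation systems attaches Atg8 to lipid as the sheet grows. Bulk autophagy takes up cytoplasm during starvation, whereas selective autophagy uses receptors that tie a given cargo to Atg8. The cytoplasm-to-vacuole targeting (Cvt) pathway is a selective form that runs in well-fed cells and delivers vacuolar enzymes. In rich medium many ATG genes are held low, and nitrogen starvation raises several of them.

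NPL3 itself read 3.80, 4.04 and 4.04 on the deletion arrays, against 10.75, 11.37 and 11.33 in wild type (expression values taken as log2 from their range and the tools named, as all levels below). The groups were thus apart as the labels say. The MATa markers MFA1, MFA2, STE2, STE6 and AGA2 had gene means of 8.87 to 11.18 in the deletion and 9.42 to 11.14 in wild type, and their summed log2 values were 49.6 to 50.3 in the deletion and 52.3 to 52.4 in wild type, with 4 of the 5 lower. Of 4 MATalpha markers, SAG1 was at 7.86 in the deletion and 7.38 in wild type, and the other 3 had means of 3.13 to 4.41 in the deletion and 3.72 to 4.35 in wild type, none of them at or below the background level of 2.13. Spiked array controls differed between the genotypes too. Hybridization controls averaged 7.57, 8.57 and 8.79 on the deletion arrays and 8.86, 8.87 and 9.01 on the wild type arrays, and labelling controls 4.82, 4.46 and 4.65 on the deletion arrays and 3.998, 4.17 and 4.08 on the wild type arrays. In 8 yeast control genes with probe sets at either end, the 5′ value less the 3′ value had medians of -0.67, -0.77 and -0.90 on the deletion arrays and -1.14, -1.17 and -1.15 on the wild type arrays. The part of these differences in the results that follow was not tested.

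The ATG genes did not move as a block. Of the 34, 15 rose, 11 fell and 8 were not called in the deletion (limma, adjusted p at most 0.05 over all genes). The median difference was 0.11 on the log2 scale, against 0.01 over all genes. ATG39, an ER-phagy receptor gene, had the largest rise, and ATG36 and ATG14, which act in pexophagy and in the lipid kinase complex, the largest falls. Called genes made up 76.5% of the ATG genes and 61.8% of all genes. Rises were 44.1% of the ATG genes and 32.9% of all genes, and falls 32.4% of the ATG genes and 28.9% of all genes. A fold of at least 1.5 was reached by 8 members (23.5%), compared with 16.9% of all genes. Among these, 4 were higher and 4 lower, compared with 8.28% of all genes higher and 8.66% lower. The array values of the genotypes did not overlap for 27 members, or for 68.8% of all genes. The median size of a difference, without its sign, was 0.40 among the ATG genes and 0.23 over all genes. In a culture, fewer cells with a transcript and less of it per cell cannot be told apart.

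**Figure D1:**
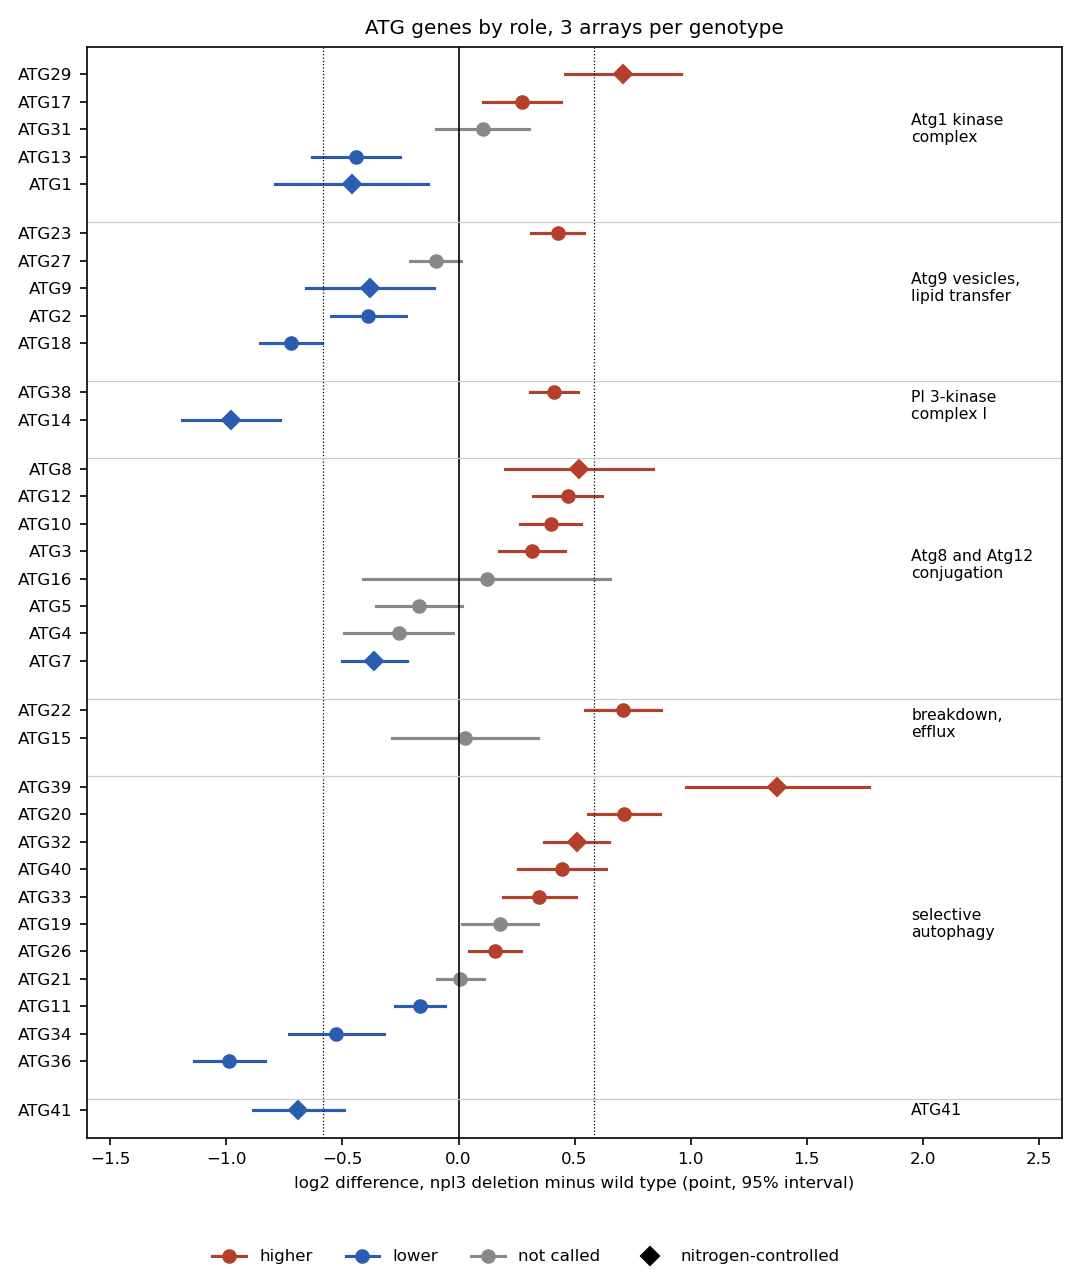
Log2 difference, npl3 deletion minus wild type, of the 34 ATG genes in groups by role, with 95% intervals from the limma fit (3 arrays per genotype); diamonds are the 9 nitrogen-controlled genes and dotted lines mark a fold of 1.5. Most role groups hold members on both sides of 0, from -0.99 (ATG36) to 1.37 (ATG39).

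The 22 genes listed here as core machinery serve most forms of autophagy, although ATG17, ATG29 and ATG31 form a scaffold of bulk autophagy. Of these 22 genes, 9 rose, 7 fell and 6 were without a call. Their median difference was 0.07. Their call share of 72.7% stood beside the 61.8% of all genes. In the Atg1 kinase complex, 2 subunit genes rose, 2 fell and 1 was not called. ATG29, part of the scaffold with ATG17 and ATG31, had the larger rise. It read 4.97, 4.91 and 4.98 in the deletion, against 4.13, 4.09 and 4.51 in wild type, a difference of 0.71 (SE 0.11, limma adjusted p = 0.000831). All 3 deletion values lay above the highest wild type value. The wild type values of 4.13 and 4.09 stand just above the 4.04 read by the NPL3 probe set in cells without NPL3. Whether a signal this low tracks its transcript was not tested. ATG17, the central subunit of the same scaffold, rose by 0.27 (adjusted p = 0.0126), and ATG31, which joins it to ATG29, differed by 0.10 (95% interval -0.10 to 0.30, adjusted p = 0.318).

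The kinase and its regulatory subunit went the other way. ATG1, the protein kinase, read 5.96, 5.73 and 5.81 in the deletion, against 6.03, 6.62 and 6.23 in wild type, and fell by 0.46 (SE 0.14, adjusted p = 0.0225). The groups were separated by only a narrow gap, and wild type replicate 2 was the highest array. Without that array the difference was -0.30 (adjusted p = 0.0302). The ATG1 call ended without deletion replicate 2 (adjusted p = 0.075) and without deletion replicate 3 (adjusted p = 0.063). ATG13, through which TORC1 acts on the complex, fell by 0.44 (SE 0.08, adjusted p = 0.00218), with values of 7.07, 7.01 and 6.93 in the deletion and 7.28, 7.58 and 7.48 in wild type, which did not overlap.

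Genes of the Atg9 vesicles and of lipid transfer were mostly lower, with 3 of 5 falling (60%, against 28.9% of all genes), 1 rising and 1 not called. ATG18, which binds the lipid made by the phosphatidylinositol 3-kinase, read 6.18, 6.10 and 6.22 in the deletion, against 6.81, 6.95 and 6.91 in wild type. It fell by 0.72 (SE 0.06, adjusted p = 2.99e-05), a wild type level 1.65 times that of the deletion, and the arrays of each genotype lay close together. ATG2, the lipid transfer protein that works with Atg18, fell by 0.39 (adjusted p = 0.00201). ATG9, the membrane protein of the vesicles, fell by 0.38 (adjusted p = 0.0241), with overlapping values of 5.97, 5.63 and 5.69 in the deletion and 5.94, 6.33 and 6.16 in wild type. The ATG9 call depended on single arrays, and ended without deletion replicate 2 (adjusted p = 0.0828), deletion replicate 3 (0.0779), wild type replicate 2 (0.0746) or wild type replicate 3 (0.0595). ATG23 and ATG27 both help Atg9 to move through the cell. ATG23 rose by 0.43 (adjusted p = 0.000194), and ATG27 differed by -0.10 (95% interval -0.21 to 0.01).

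Autophagy-specific subunits of the phosphatidylinositol 3-kinase complex moved in opposite directions. ATG14, which directs the kinase to the site of autophagosome formation, read 4.02, 3.87 and 3.63 in the deletion, against 4.84, 4.83 and 4.79 in wild type. It fell by 0.98 (SE 0.09, adjusted p = 6.55e-05), nearly the largest fall among the ATG genes, and the wild type arrays agreed closely while the deletion arrays were spread. These deletion values stand next to those read by the NPL3 probe set in cells without NPL3, up to 4.04, and whether a signal this low still tracks its transcript was not tested. ATG38, which links the subunits, rose by 0.41 (SE 0.05, adjusted p = 0.00015) at 6.72, 6.67 and 6.73 in the deletion and 6.27, 6.33 and 6.29 in wild type, with no overlap. It carries an intron, and it is the only one of the 34 whose span in the reference table is not a multiple of 3. Spliced and unspliced forms are not told apart by these values.

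The partners that complete this complex fell with ATG14. VPS30 (7.04, 6.97 and 6.995 in the deletion, 7.67, 7.70 and 7.64 in wild type) fell by 0.67 (adjusted p = 1.33e-05), and the regulatory kinase gene VPS15 fell by 0.60 (adjusted p = 4.87e-05). The catalytic subunit gene VPS34, named after its value was seen, fell by 0.18 (adjusted p = 0.0189). All 3 tested partners were thus lower, where 28.9% of all genes fell. These 3 also serve vacuolar protein sorting in a second complex without Atg14.

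In the conjugation systems, 4 of 8 genes rose (50%, against 32.9% of all genes), 1 fell (12.5%, against 28.9%) and 3 were not called. The called share of 62.5% was close to the 61.8% of all genes, and the single fall became 2 or 3 under some alternatives, through ATG4 and ATG5 below. ATG8, the ubiquitin-like protein that coats the growing membrane, read 8.54, 8.46 and 8.56 in the deletion, against 7.65, 8.15 and 8.21 in wild type, a rise of 0.52 (SE 0.14, adjusted p = 0.0122). Wild type replicate 1 was the low array, and without it the rise was 0.34 (adjusted p = 0.00171). ATG12, the other ubiquitin-like protein, rose by 0.47 (adjusted p = 0.000475) on arrays that did not overlap, 7.16, 7.11 and 7.03 in the deletion and 6.64, 6.53 and 6.72 in wild type. The conjugating enzyme genes ATG10, for Atg12, and ATG3, for Atg8, rose by 0.40 (adjusted p = 0.000576) and by 0.32 (adjusted p = 0.00284).

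ATG7, the activating enzyme shared by both systems, fell. Its values were 6.33, 6.30 and 6.37 in the deletion and 6.61, 6.81 and 6.67 in wild type, a difference of -0.36 (SE 0.06, adjusted p = 0.00132). The protease gene ATG4, which processes and later releases Atg8, differed by -0.26 (95% interval -0.49 to -0.02, adjusted p = 0.0572), just short of the threshold. It was called lower without deletion replicate 3 (adjusted p = 0.0434), without wild type replicate 1 (0.0165) and with array weights (0.031). ATG5, the target to which Atg12 is joined, differed by -0.17 (95% interval -0.36 to 0.02). ATG5 was called lower without wild type replicate 2 (-0.25, adjusted p = 0.0178) and with array weights (adjusted p = 0.0468), and differed by -0.11 without wild type replicate 3. ATG16, which holds the Atg12 and Atg5 product together, differed by 0.12 with a wide interval of -0.41 to 0.65. Its values of 3.04, 2.46 and 2.51 in the deletion and 2.21, 2.40 and 3.03 in wild type were near the background level, so a change of moderate size was not detectable there.

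Of the ATG genes for the last steps in the vacuole, ATG22 rose and ATG15 did not pass the test. ATG22, which exports amino acids from the vacuole, read 8.73, 8.60 and 8.58 in the deletion, against 7.81, 8.01 and 7.98 in wild type. The rise was 0.71 (SE 0.07, adjusted p = 9.72e-05), a fold of 1.63, with no overlap of the groups. ATG15, the lipase that opens the delivered vesicles, differed by 0.03 (95% interval -0.28 to 0.34). It read 4.78, 4.31 and 4.515 in the deletion, against 4.28, 4.59 and 4.65 in wild type. These values stand not far above the 4.04 read by the NPL3 probe set in cells without NPL3. Whether so low a signal tracks the ATG15 transcript was not tested.

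Among the 11 genes of selective autophagy, 6 rose, 3 fell and 2 were not called (median 0.18). Rises were 54.5% of them, against 32.9% of all genes, and falls 27.3%, against 28.9%. A fold of 1.5 was reached by 3 (27.3%, against 16.9% of all genes). The receptors for organelles differed by cargo. ATG39, the receptor for the nuclear envelope and the ER around it, had 6.73, 6.55 and 6.61 in the deletion, against 4.82, 5.43 and 5.52 in wild type. It rose by 1.37 (SE 0.17, adjusted p = 0.000283), a fold of 2.59, and 3.03% of all genes had a larger difference in size. Wild type replicate 1 was the lowest array here too, and without it the rise was 1.16 (adjusted p = 1.95e-05; 1.16 to 1.504 over the 6 arrays left out in turn). ATG40, the receptor for the peripheral ER, rose by 0.45 (SE 0.08, adjusted p = 0.00211), at 7.13, 7.18 and 7.29 in the deletion and 6.59, 6.87 and 6.80 in wild type.

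Both mitophagy genes rose. ATG32, the receptor on the mitochondrial surface, read 7.98, 7.83 and 7.96 in the deletion, against 7.48, 7.35 and 7.41 in wild type, a rise of 0.51 (SE 0.06, adjusted p = 0.00022). ATG33, an outer membrane protein needed for full mitophagy, rose by 0.35 (SE 0.07, adjusted p = 0.00291). Neither gene overlapped between the genotypes. ATG36, the receptor for peroxisomes, was the opposite case. It read 4.72, 4.82 and 4.74 in the deletion, against 5.76, 5.84 and 5.62 in wild type, and fell by 0.99 (SE 0.07, adjusted p = 1.31e-05). The wild type level was 1.98 times that of the deletion, and the fall was the largest among the ATG genes. ATG26, a sterol glucosyltransferase gene whose role in peroxisome breakdown is known from Pichia pastoris, rose by 0.16 (adjusted p = 0.0215), a call that ended without deletion replicate 1 (adjusted p = 0.06), deletion replicate 3 (0.0732) or wild type replicate 2 (0.0562).

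**Figure D2:**
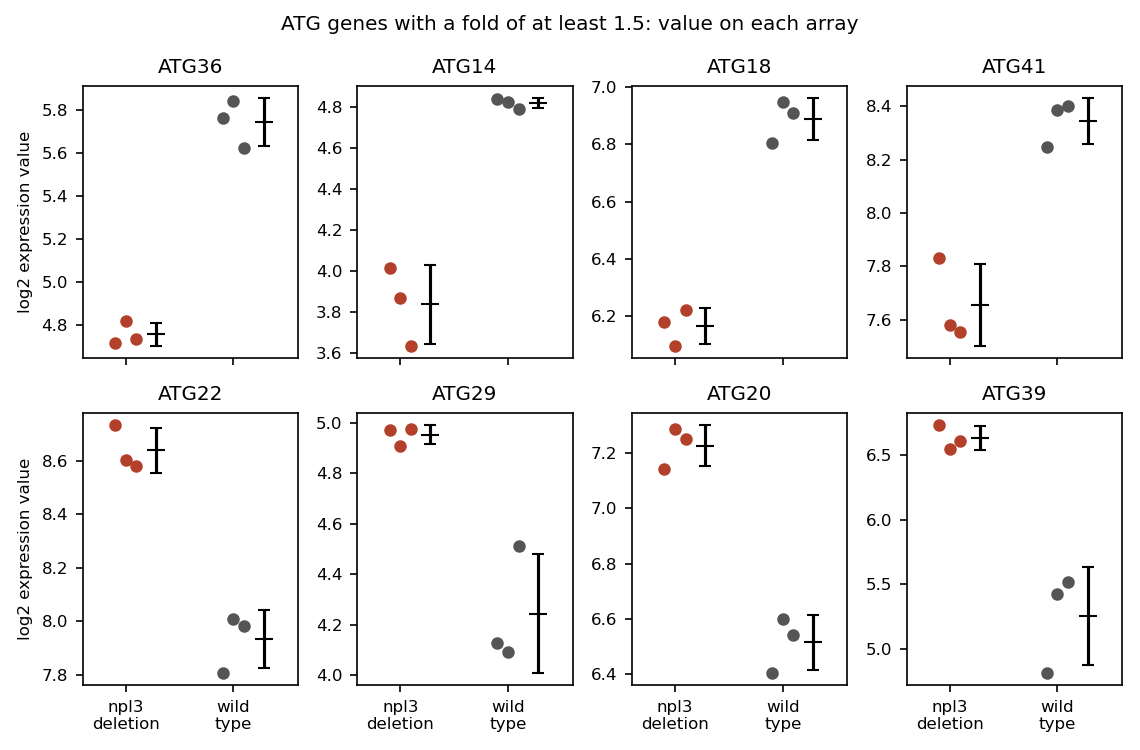
Log2 expression values on each array for the 8 ATG genes with an adjusted p of at most 0.05 and a fold of at least 1.5; each panel has its own vertical axis, and bars give mean and SD of 3 arrays. ATG36, ATG14, ATG18 and ATG41 are lower in the deletion, and ATG22, ATG29, ATG20 and ATG39 higher. The genotypes overlap in no panel, but the panels were chosen by call and fold, and 68.8% of all genes do not overlap either.

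ATG20, a sorting nexin of Cvt vesicle formation, read 7.14, 7.29 and 7.25 in the deletion, against 6.40, 6.60 and 6.54 in wild type, and rose by 0.71 (SE 0.07, adjusted p = 6.55e-05), a fold of 1.64. Its partner nexin gene SNX4 rose by 0.44 (adjusted p = 0.00172). ATG11, the scaffold that brings receptors to the Atg1 complex, fell by 0.17 (adjusted p = 0.0152), a small change whose call ended without deletion replicate 2 (adjusted p = 0.0541). ATG21, a lipid-binding protein gene of the Cvt pathway, differed by 0.01 (95% interval -0.09 to 0.11), the narrowest interval of the ATG genes.

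ATG19 and ATG34 encode related receptors for Cvt cargo and lie next to each other on chromosome XV. ATG34 read 5.81, 5.75 and 5.58 in the deletion, against 6.10, 6.23 and 6.39 in wild type, and fell by 0.53 (SE 0.09, adjusted p = 0.00133). ATG19 read 7.96, 7.89 and 7.70 in the deletion, against 7.67, 7.70 and 7.64 in wild type, a difference of 0.18 (95% interval 0.02 to 0.34, adjusted p = 0.0557). The first gene was lower on every deletion array, and the second was not called, although it passed the threshold without deletion replicate 3 (difference 0.25, adjusted p = 0.00831). Whether the pair differ in their response was not tested. The main cargo of ATG19, the aminopeptidase gene APE1, fell further than any ATG gene. It read 7.15, 7.21 and 6.996 in the deletion, against 8.54, 8.46 and 8.51 in wild type, and fell by 1.39 (SE 0.06, adjusted p = 2.06e-06).

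APE1 belongs to 11 tested partner genes of selective autophagy, of which 2 rose, 3 fell and 6 were not called (45.5% called, against 61.8% of all genes). CUE5, a receptor for ubiquitinated protein aggregates, fell by 1.26 (adjusted p = 1.04e-06), and FIS1, a mitochondrial fission gene, rose by 0.25 (adjusted p = 0.0258).

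The members listed here as nitrogen-controlled, raised by nitrogen starvation, are 9: ATG1, ATG7, ATG8, ATG9, ATG14, ATG29, ATG32, ATG39 and ATG41. Routes known for some of them are the GATA factors Gln3 and Gat1, Gcn4, and loss of the repressor Ume6. All 9 were called, 4 higher (44.4%) and 5 lower (55.6%), where 61.8% of all genes were called. Among the other 25 ATG genes, 11 rose (44%), 6 fell (24%) and 8 were not called. Over all genes, 32.9% rose and 28.9% fell. The 9 genes therefore split by direction. ATG39, ATG29, ATG8 and ATG32 rose by 1.37, 0.71, 0.52 and 0.51, and ATG14, ATG41, ATG1, ATG9 and ATG7 differed by -0.98, -0.69, -0.46, -0.38 and -0.36. Without deletion replicate 2, and likewise without deletion replicate 3, 3 of the 9 were lower instead of 5, since ATG1 and ATG9 lost their calls. ATG41, which has no place in the role groups above and binds Atg9, read 7.83, 7.58 and 7.55 in the deletion, against 8.25, 8.39 and 8.401 in wild type. It fell by 0.69 (SE 0.08, adjusted p = 0.000268), with a wild type level 1.61 times that of the deletion and no overlap.

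The 13 genes that regulate ATG transcription held 2 that rose (15.4%, against 32.9% of all genes), 8 that fell (61.5%, against 28.9%) and 3 that were not called. GAT1, a GATA activator of nitrogen-repressed genes, read 7.99, 7.85 and 7.87 in the deletion, against 8.97, 8.94 and 9.07 in wild type, and fell by 1.09 (SE 0.06, adjusted p = 4.75e-06). GLN3, its partner activator, rose by 0.30 (adjusted p = 0.0308). It read 7.77, 7.385 and 7.41 in the deletion, against 7.27, 7.17 and 7.22 in wild type. Deletion replicate 1 was the highest array, and whether the GLN3 call depends on it was not examined. PHO23, a repressor of ATG9, rose by 0.18 (adjusted p = 0.0288), and the stress factor gene MSN2 fell by 0.51 (adjusted p = 0.000114). GAT1 and GLN3 thus had differences of opposite sign at the transcript level, that of GLN3 being smaller and uneven across the deletion arrays.

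Targets of nitrogen catabolite repression, the system that silences genes for poor nitrogen sources in rich medium, formed a separate list and were mostly lower. Of 19, 12 fell (63.2%, against 28.9% of all genes), 5 rose (26.3%, against 32.9%) and 2 had no call. Their median difference was -0.51, against -0.36 for the 9 nitrogen-controlled ATG genes. The latter median is the value of ATG7, in a set with 4 rises and 5 falls, and describes no common shift. The permease genes GAP1, for amino acids, and MEP2, for ammonium, fell by 2.10 (adjusted p = 1.82e-06) and fell by 2.07 (adjusted p = 6.73e-07). DAL4, the allantoin permease gene, and MEP1, a further ammonium permease gene, rose by 0.89 and 0.60 (adjusted p = 7.37e-05 and 0.000601). Members of both lists therefore lay on both sides of 0.

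TORC1 and its inputs stayed within a narrow range, with differences of -0.42 to 0.26 for 20 genes, of which 5 rose, 5 fell and 10 were not called (50% called, against 61.8% of all genes). NPR1, a kinase that stabilises permeases, and MEH1, a vacuolar anchor of the TORC1 regulators, both fell by 0.42 (adjusted p = 0.000809 and 0.00277). TAP42, a phosphatase regulator under TORC1, and RTC1, of the SEA complex, rose by 0.26 and 0.23 (adjusted p = 0.00723 and 0.0217). Among 7 other kinase genes upstream of autophagy, 1 rose, 4 fell and 2 were not called (71.4% called, against 61.8%). Rises were 14.3% of them, against 32.9% of all genes, and falls 57.1%, against 28.9%. PHO85, a cyclin-dependent kinase with both positive and negative inputs to autophagy, read 7.44, 7.46 and 7.42 in the deletion, against 8.57, 8.55 and 8.59 in wild type, and fell by 1.13 (SE 0.04, adjusted p = 1.07e-06). RIM15, a kinase of entry into quiescence that relieves Ume6 repression, rose by 0.71 (adjusted p = 0.000382), and GCN2, the sensor of uncharged tRNA, fell by 0.44 (adjusted p = 0.000302).

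Genes for membrane tethering, for fusion and for breakdown in the vacuole all differed by less than a fold of 1.5. Of 15 for fusion with the vacuole, 7 rose, 2 fell and 6 were not called, a called share of 60% beside the 61.8% of all genes. The vacuolar SNARE gene VAM3 rose by 0.52 and CCZ1, part of the exchange factor for Ypt7, by 0.40 (adjusted p = 0.000573 and 0.0034). PEP5, a core subunit of the tethering complexes, fell by 0.43, and SEC17, which helps to recycle SNAREs, fell by 0.20 (adjusted p = 0.000312 and 0.0283). Of 8 genes of Ypt1 and the TRAPP complexes, which tether early membranes, 4 rose, 1 fell and 3 were not called, a called share of 62.5%, again close to that of all genes. BET3 and TRS20 rose by 0.37 and 0.34, and TRS31 fell by 0.41 (adjusted p = 0.00054, 0.00472 and 0.000804). All 5 tested vacuolar hydrolase genes were called, where 61.8% of all genes were. Rises were 40% of them, against 32.9% of all genes, and falls 60%, against 28.9%. The proteases PRB1 and PEP4 rose by 0.55 and 0.28 (adjusted p = 0.00188 and 0.0028), whereas the alkaline phosphatase gene PHO8 and the carboxypeptidase genes PRC1 and CPS1 fell by 0.45, fell by 0.26 and fell by 0.25 (adjusted p = 0.00081, 0.00417 and 0.00313). CPS1 was named after its value was seen.

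**Figure D3:**
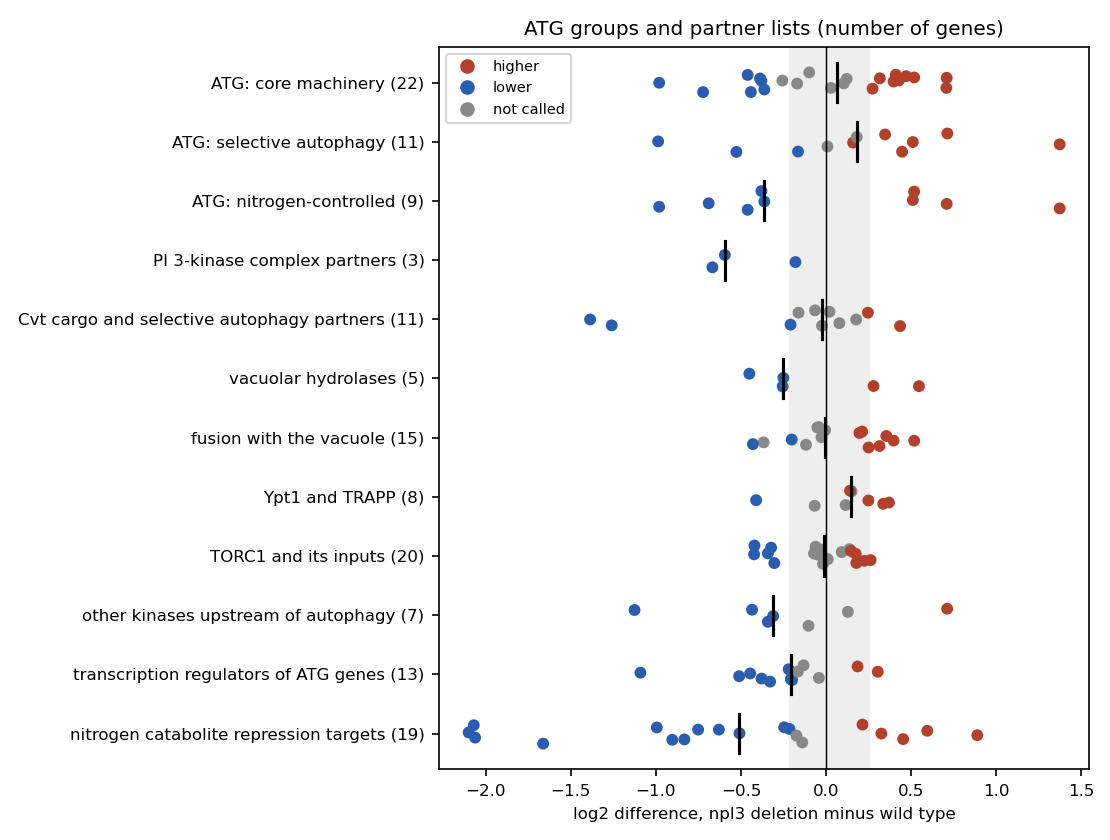
Log2 differences, npl3 deletion minus wild type, of the 3 ATG groups and of 9 partner lists, 1 point per gene and a bar at the median; the grey band is the middle of the distribution of all genes, from the lower quartile of -0.21 to the upper quartile of 0.25. Nitrogen catabolite repression targets reach -2.10 (GAP1), and the ATG groups lie on both sides of 0.

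The members share no chromosome region, although their positions and directions were uneven. None of the 34 lies on chromosome I, where 82.2% of all genes rose in the deletion and the median was 0.83 (copy number was not tested). Chromosome XII holds 7 of them, ATG10, ATG17, ATG23, ATG26, ATG33, ATG38 and ATG39, and all 7 rose, where 32.9% of all genes on that chromosome rose and its median was 0.01. Of 6 on chromosome XVI, 1 rose and 3 fell, where 34% of all genes on that chromosome rose and 29.2% fell. The pattern of chromosome XII was noticed after the values were seen and carries no test. Gene length and difference had a Spearman correlation of -0.24 across the 34 genes and of -0.18 across all 5449. Genes on the same arrays are not independent, and these are descriptions.

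Arrays of a genotype agreed on most members. The median SD of a member was 0.08 among the deletion arrays and 0.10 among the wild type arrays, compared with 0.06 and 0.07 over all genes. The median of the 34 members relative to their wild type means was 0.23, 0.06 and 0.01 on the deletion arrays, and -0.07, 0.03 and 0.03 on the wild type arrays. Deletion replicate 1, which also had the lowest hybridization controls, stood highest. Without it 14 members were called higher and 11 lower, and the median was 0.03.

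**Figure D4:**
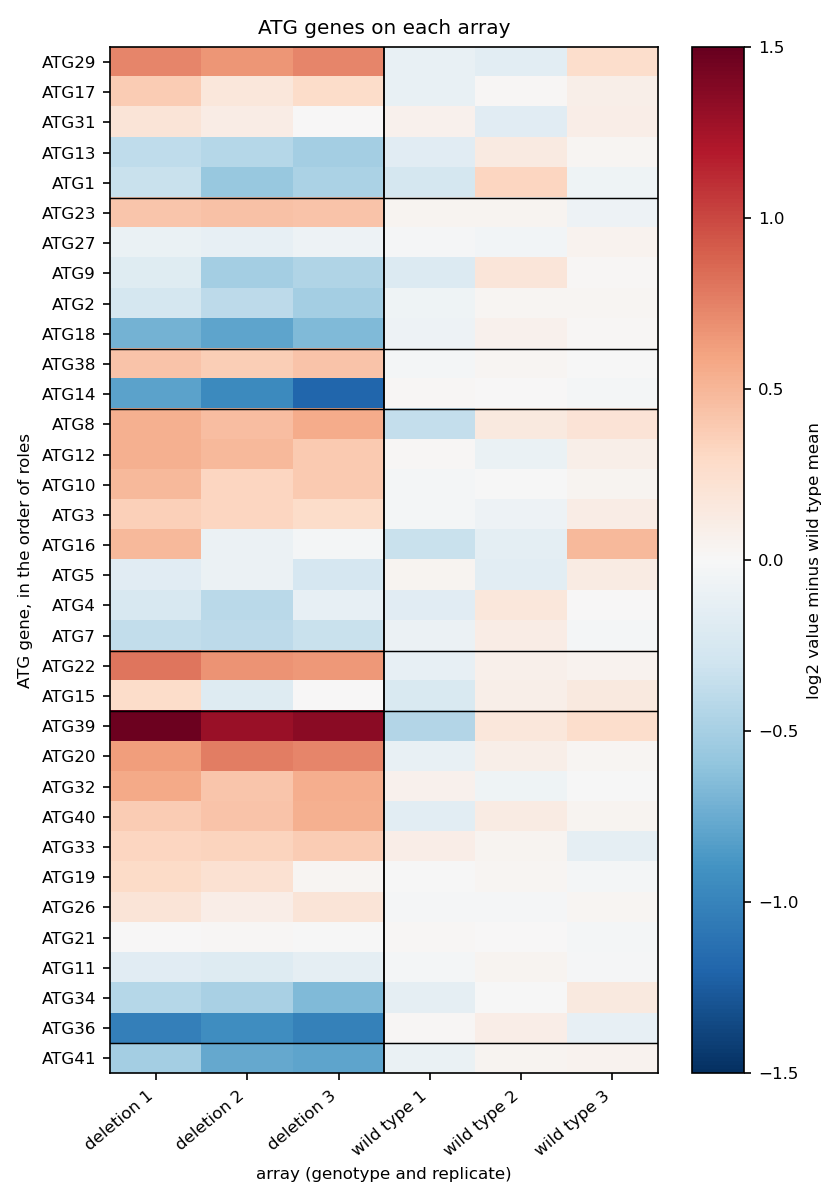
Log2 value minus the wild type mean of the same gene, for the 34 ATG genes (rows, in the order of roles) on the 6 arrays (columns). Within the deletion the 3 columns are alike for most genes, and single wild type arrays stand out for ATG8 and ATG39 (replicate 1), ATG1 (replicate 2) and ATG16 (replicate 3).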

How the data were processed

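The authors deposited 1 value for every probe set of each array, taken here as log2 from its range and from the tools named. Per the submitters' processing notes these include RMA and limma, while the steps, versions and options are not given in the sources. If RMA made these values, it equalises the distributions of the arrays, which would hide any shift common to most genes. The values were not normalized again. Of 10928 probe sets, 5498 matched 1 gene of the yeast reference table, and the brightest per gene (mean of 6 arrays) gave 5449 genes. The background level of 2.13 is the 95th percentile of 1746 probe sets with genes outside that table. The test was that of limma 3.58.1, run in R 4.3.3 (lmFit, eBayes, two-sided, no covariates, Benjamini-Hochberg over 5449 genes), and all adjusted p-values and intervals come from it. The number of arrays limits the precision.

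The members and lists were chosen with earlier results of these data known. All members may be named. Array values are given for members with a fold of at least 1.5 and for the largest called rise and fall of each role group, with some others added, and partner lists name up to 2 rises and 2 falls. Some genes of the lists, DUR1,2, ATG42 and ATG44 among them, were not analysed here. Same-numbered arrays were not treated as pairs: their deviations from the group means correlated at -0.14, -0.07 and -0.19. The fit was repeated with the replicate number as a block, with each array omitted, after centring on array medians or quantile normalization, with dim genes removed, with another variance model or array weights, with probe sets averaged, without s or x probe sets or chromosome I genes, and at stricter thresholds. Counts for role groups under them were added later. No sequences are shown. Python 3.11.15 with pandas 2.3.3 and matplotlib 3.10.9 prepared tables and figures.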

Additional observations from a re-analysis of the deposited data

How the results depend on the processing

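Over 18 alternatives, 537 of 589 values of single members kept their direction and their side of the threshold, 32 lost the call, 12 gained it and 8 changed sign. Some alternatives could hardly change a member. No ATG gene lies on chromosome I, is read by an s or x probe set or by several probe sets, or is at the background level. The fits that varied these points kept all 34 members the same, which shows little about robustness. All 8 sign changes were in members that were not called. ATG15 was at -0.048 under quantile normalization and -0.079 with array weights, and ATG16 at -0.132 with array weights. With single arrays left out, ATG15 ranged over -0.093 to 0.141, ATG16 over -0.063 to 0.363 and ATG21 over -0.008 to 0.019. Leaving out the arrays singly, 14 to 15 ATG genes were higher and 8 to 12 lower, 8 to 10 reached a fold of 1.5, the median was 0.03 to 0.16, and 3 to 5 nitrogen-controlled genes were lower. With a replicate block, 14 were higher, 9 lower and 8 past the fold, and ATG9, ATG11 and ATG26 lost their calls. The block changed the sign of no member, and the arrays share only a number. Removing the dimmest 25% of genes left 11 of the 34 members, 6 higher and 2 lower, with 2 past the fold. In that fit 2 core genes were higher and 0 lower of 4, 1 selective autophagy gene was lower, and 2 nitrogen-controlled genes were higher and 1 lower. The balance of directions changed along with the number of members. All 7 core genes called lower in the main fit were among the dim genes removed. Tested against a fold of 1.2, 8 ATG genes were higher and 5 lower and 1343 of all genes were called, with 5 core genes higher and 2 lower, 3 selective autophagy genes higher and 2 nitrogen-controlled genes lower. At an adjusted p of 0.01, 3 nitrogen-controlled genes were lower. ATG14 and ATG16 had arrays at or below the 4.04 read by NPL3 where it is absent, and ATG29 had wild type arrays just above it (4.13 and 4.09). ATG15 was also low on all arrays (4.28 to 4.78), and ATG36 on the deletion arrays (4.72 to 4.82). Such low signals limit what the differences of these genes show.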
